A study of Mus musculus with 24 samples.

Results

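The genes described here are 8 genes of the cytokine pathway that signals through gp130 and STAT3: the receptor genes Il6st, Il6ra, Osmr and Lifr, the kinase gene Jak1, the transcription factor gene Stat3 and the inhibitor genes Socs3 and Socs1. They were followed through maps of accessible chromatin in sorted mouse skin cells. Peaks of 8 deposited lists were merged into 63188 regions on the mm10 build, and each region was given to whichever protein-coding gene lay closest, up to 50 kb away (0 inside a gene). Of the 52791 regions near a gene, 67 fell to these 8 genes: 17 to Jak1, 11 to Osmr, 10 to Lifr, 9 to Socs3, 6 each to Stat3, Il6st and Il6ra, and 2 to Socs1. Nearness places a region by a gene and does not show that it acts on that gene.

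ATAC-seq, in which a transposase cuts open DNA, was run on 24 samples from CD1 x C57BL/6J mice. Hair follicle stem cells (day 0, 4 samples) and epidermal stem cells (day 0, 4 samples, and day 80, 3 samples) came from unwounded Krt19-CreER/R26-YFP skin. Partial-thickness wounds in mice of the same genotype gave cells labelled as hair follicle stem cell progeny at day 3 (3 samples), day 7 (2) and day 80 (3), and full-thickness wounds in Sox9-CreER/R26-YFP mice gave cells labelled as epidermal stem cell progeny at day 7 (3) and day 80 (2). In such mice a Cre that tamoxifen switches on, driven from Krt19 or Sox9, lets a cell and its descendants express YFP. Both genes are active in hair follicle stem cells, and the sources used here give neither the sort gates nor the ages of the mice. Wound type, genotype and the labelled origin of the wound cells changed together and cannot be told apart.

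Cytokines of the interleukin-6 family signal through receptor chains such as the interleukin-6, oncostatin M or leukaemia inhibitory factor receptor. These act together with the shared chain gp130, the product of Il6st. The bound kinases, JAK1 foremost, phosphorylate STAT3, which enters the nucleus and binds DNA, and SOCS3 and SOCS1 are induced and switch the signal off. In skin the pathway is known for its part in keratinocyte migration, wound closure and the hair cycle.

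Each group came as 1 list, so there is no error between replicates, no test between groups, and a region is only present in or absent from a list. Depth is unknown. Exact 95% Clopper-Pearson intervals cover counting error alone, as if regions were independent draws. A region open in few cells and one weakly open in many cannot be told apart. The day 0 epidermal list was placed by its deposited name, although the names of the peaks in it bear a day 7 control tag. Most comparisons that use it are therefore also given with the day 80 epidermal list in its place.

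At every main start site the chromatin was open in all groups. Each of the 8 genes had a region over a RefSeq promoter (250 bases before to 50 after the start), and all 8 of these regions were in all 8 lists. Among all regions that hold a promoter, 69.9% were in all 8 lists. The bases before the annotated gene are shown for the transcription factor, an inhibitor and the shared receptor, from RefSeq (GRCm38.p6, the assembly of mm10), 5′ to 3′ on the gene's strand, with CpG pairs in capitals. In all 8 lists a single peak covered the whole of each stretch.
Stat3, chr11:100939595-100939790, minus strand: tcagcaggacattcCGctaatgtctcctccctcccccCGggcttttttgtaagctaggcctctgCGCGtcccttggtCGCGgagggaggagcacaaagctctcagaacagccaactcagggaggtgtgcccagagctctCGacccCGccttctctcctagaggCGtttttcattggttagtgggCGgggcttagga
Socs1, chr16:10785537-10785786, minus strand: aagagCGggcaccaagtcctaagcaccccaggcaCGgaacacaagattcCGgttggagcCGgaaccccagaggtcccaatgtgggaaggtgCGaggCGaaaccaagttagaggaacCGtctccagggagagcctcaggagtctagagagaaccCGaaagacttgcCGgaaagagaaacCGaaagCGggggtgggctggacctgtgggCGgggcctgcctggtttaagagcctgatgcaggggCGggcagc
Il6st, chr13:112463820-112464069, plus strand: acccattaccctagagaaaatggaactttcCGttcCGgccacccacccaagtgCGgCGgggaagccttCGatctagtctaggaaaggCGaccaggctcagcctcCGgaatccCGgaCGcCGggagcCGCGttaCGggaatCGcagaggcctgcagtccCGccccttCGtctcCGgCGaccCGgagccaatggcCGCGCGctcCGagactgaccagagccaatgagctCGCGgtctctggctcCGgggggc
The Stat3 stretch is shorter because the annotated gene reaches into the 250 bases. These stretches held 10, 13 and 26 CpG pairs. Over the full 300 bases the GC content at the 8 main start sites ran from 60.7% at Stat3 to 81.3% at Lifr, against a median of 52.7% over 32851 RefSeq promoters. A further Lifr start site, at 7140542 on chromosome 15, had 53.3% GC and no region in any list.

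A STAT motif (TTCNNNGAA, read on both strands) lay in 1 of the 9 member promoters, that of Socs3. It is shown because SOCS3 is the textbook feedback target of STAT3, with the motif in capitals, and its first base is 154 bases before the start site, within the span annotated as Socs3. An AP-1 motif (TGANTCA, both strands, no overlap with the first) lay in the promoter of Osmr alone, 3 bases after the start site.
Socs3 STAT motif, chr11:117969502-117969530, minus strand: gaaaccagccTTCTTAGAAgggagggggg
Osmr AP-1 motif, chr15:6874294-6874320, minus strand: gccccgtagtTGATTCAtagctggggc
Of all 32851 promoters, 8.30% held the STAT motif and 7.81% the AP-1 motif, so 1 match among 9 is near what these promoters hold in general. Both motifs lay in regions of all 8 lists. A match of letters shows no binding.

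**Figure D1:**
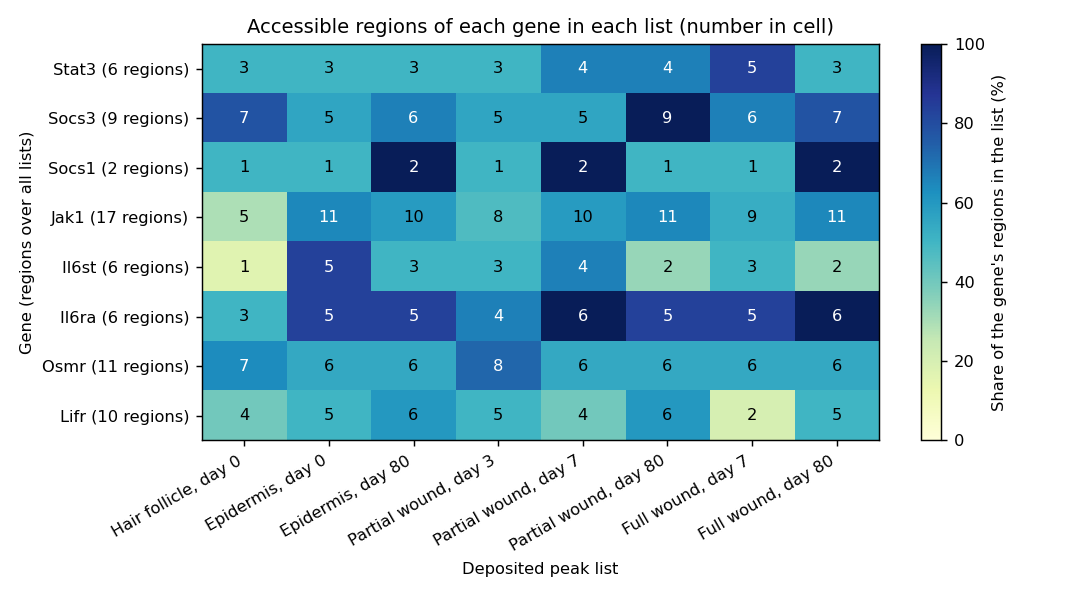
Number of accessible regions of each gene (rows) in each deposited list (columns), with colour for the share of the gene's own regions in percent. Il6st has 1 region in hair follicle cells and 5 in day 0 epidermis, and Socs3 has all 9 in the day 80 partial-thickness list.

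Il6st, which encodes gp130 (gene ID 16195, chromosome 13, 112464070 to 112506860, plus strand), had 1 region in hair follicle cells. This was the start region (112463367 to 112464787), whereas unwounded epidermis had 5 of 6 at day 0 and 3 at day 80. After partial-thickness wounding it had 3, 4 and 2 regions (days 3, 7 and 80), and after full-thickness wounding 3 and 2 (days 7 and 80). The start region stood high within its lists, at percentiles by score from 59.2 (day 7 full-thickness) to 92.7 (day 80 epidermis). A percentile is the place of a peak among the peaks of its own list, by the authors' score, and does not compare levels between lists.

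The other Il6st regions each had a course of their own. The region 30.7 kb upstream (112432580 to 112433388) was missing from the hair follicle and day 3 lists and present in the other 6, at percentile 67.4 in day 0 epidermis, 90.2 in day 80 epidermis, 52.9 and 68.2 after partial-thickness wounding (days 7 and 80), and 18.3 and 76.6 after full-thickness wounding (same days). The region 23.7 kb upstream (112439410 to 112440374) was in both unwounded epidermal lists, at percentiles 52.2 and 41.1, and in no wound list. The region 2.4 kb upstream (112461106 to 112461632) was in day 0 epidermis at percentile 24.6 and in the 3 early wound lists at 66.5 (day 3 partial), 51.6 (day 7 partial) and 70.0 (day 7 full), and no day 80 list held it. It would therefore count as gained after wounding if day 80 epidermis replaced day 0. The region 5.1 kb downstream of the start (112469141 to 112469791) was in day 0 epidermis alone, at percentile 11.2. The last region, 2.5 kb past the gene's end, was found after partial-thickness wounding alone, on days 3 and 7, at percentiles 0.918 and 24.6.

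Il6ra, which encodes the receptor chain that binds interleukin-6 (gene ID 16194, chromosome 3, 89869324 to 89913196, minus strand), had 3 of its 6 regions in hair follicle cells and 5 in unwounded epidermis at either day. The wound lists held 4, 6 and 5 (partial-thickness, days 3, 7 and 80) and 5 and 6 (full-thickness, days 7 and 80). All 6 lie inside the gene or over its start. The region 24.7 kb downstream of the start (89887116 to 89888485) was absent from the hair follicle alone, at percentiles from 52.3 (day 80 full-thickness) to 81.4 (day 80 partial-thickness). The region at the far end of the gene (89870743 to 89873166) was in all lists, at percentiles 34.5 in the hair follicle and 34.8 in day 0 epidermis, 85.3 in day 80 epidermis, and 76.6 to 91.1 in the wound lists. Its place in day 80 epidermis is thus among those of the wound lists. In the main setting no Il6ra region was new to the early wounds, a result that changed under some other settings given below.

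Osmr, which encodes the oncostatin M receptor (gene ID 18414, chromosome 15, 6813568 to 6874968, minus strand), had 7 of 11 regions in hair follicle cells, 6 in unwounded epidermis at either day, 8 at day 3 of the partial-thickness wound and 6 in each other wound list. Similar totals came from different regions. Regions 12.3 kb downstream and 39.8 kb upstream of the start were in the hair follicle list alone, at percentiles 42.4 and 36.7. The region 31.2 kb upstream (6905480 to 6907145) was shared by the hair follicle and the 3 early wound lists, at 32.5, 48.8, 8.38 and 7.92, and was in no epidermal or day 80 list. The region 23.7 kb downstream (6849685 to 6850592) was likewise absent from hair follicle cells alone, at percentile 60.2 in day 0 epidermis, 61.9 in day 80 epidermis, 86.1, 60.1 and 62.6 after partial-thickness and 88.0 and 68.2 after full-thickness wounding. The 2 highest of these were those of day 3 partial-thickness and day 7 full-thickness wounds.

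Lifr, which encodes the receptor for leukaemia inhibitory factor (gene ID 16880, chromosome 15, 7090610 to 7197489, plus strand), had 4 of 10 regions in hair follicle cells and 5 and 6 in unwounded epidermis (days 0 and 80). The partial-thickness lists held 5, 4 and 6, and the full-thickness lists 2 and 5. The first start used here is at 7129572, and the annotated gene begins upstream of it, at 7090610. The region 23.7 kb upstream of that start (7104672 to 7105855) thus lies inside the gene. It was missing only from the day 7 full-thickness list. It stood at percentile 38.2 in the hair follicle, 83.5 and 93.8 in unwounded epidermis, 7.41, 42.9 and 95.1 on days 3, 7 and 80 of the partial-thickness wound, and 68.6 at day 80 of the full-thickness one. The places in unwounded epidermis and the day 80 wounds were thus the high ones, and those in the hair follicle and early wounds the low ones. The region 65.2 kb upstream (7063649 to 7064355), also measured from the first start, was in both unwounded epidermal and both day 80 wound lists, at 35.4, 68.8, 45.6 and 45.6, and in none of the other 4.

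Jak1, the kinase bound to gp130 (gene ID 16451, chromosome 4, 101151974 to 101265282, minus strand), had 5 of 17 regions in hair follicle cells, 11 and 10 in unwounded epidermis (days 0 and 80), 8, 10 and 11 after partial-thickness wounding (days 3, 7 and 80) and 9 and 11 after full-thickness wounding (days 7 and 80). The hair follicle list had the fewest. No Jak1 region was in the hair follicle and absent from day 0 epidermis, and 6 were the other way round. A region 5.2 kb upstream of the start (101270409 to 101271240) was absent from the hair follicle alone, at percentile 35.4 in day 0 and 10.2 in day 80 epidermis, 27.6, 56.6 and 57.0 after partial-thickness and 69.1 and 38.0 after full-thickness wounding. A region 68.2 kb downstream (101196164 to 101196990) had the same presence. The region 62.0 kb downstream (101202448 to 101203208) was in all 8 lists, with the hair follicle and day 7 full-thickness lists lowest at 57.0 and 54.0 and the other 6 between 79.8 and 84.7.

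Stat3 itself (gene ID 20848, chromosome 11, 100886806 to 100939594, minus strand) had 6 regions, all inside the gene or over its start. Hair follicle cells had 3, unwounded epidermis 3 at either day, partial-thickness wounds 3, 4 and 4 and full-thickness wounds 5 and 3. The start region (100938765 to 100940206) had summits within 1 bp of each other, the narrowest range among the 18 regions found in all 8 lists. Its percentile ran from 77.2 (day 80 full-thickness) to 99.4 (day 80 partial-thickness). The day 80 lists of the wounds were thus the ends of that range.

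The gene body of Stat3 was where its lists differed. The region 45.5 kb downstream of the start (100893408 to 100894054) stood at percentile 9.14 in hair follicle cells, at 23.0, 14.6 and 10.3 after partial-thickness wounding and at 34.9 on day 7 of the full-thickness wound. It was in no unwounded epidermal list and not in the day 80 full-thickness list, and its summits lay within 2 bp. The region 27.8 kb downstream (100910353 to 100911747) was missing from the early partial-thickness lists and stood at 39.7 in the hair follicle, 22.9 and 60.2 in the epidermal lists, 67.4 at day 80 after partial-thickness wounding, and 29.9 and 12.1 after full-thickness wounding. The widest one, 3548 bp long (100897369 to 100900916), was absent from both day 0 lists and present in the other 6.

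That wide region joined 4 separate summit positions, so its presence in 6 lists did not mark 1 element. A summit 39.0 kb from the start was in the 3 early wound lists alone. A summit at 40.1 kb was in the day 3 partial-thickness list and both full-thickness lists, where at day 80 it stood at percentile 1.63 of its list. Next came a summit at 41.5 kb, seen on day 80 of the partial-thickness and day 7 of the full-thickness wound. The one at 41.9 kb was in day 80 epidermis alone. However, the peaks of day 80 epidermis and of day 7 of the full-thickness wound each covered both the 41.5 and 41.9 kb positions. These positions need not be separate elements. A single wide peak of the day 80 partial-thickness list covered all 4 positions, so summits cannot say which parts were open there. Over the 67 regions, 58 held 1 summit position and 9 held more, 80 in all, where summits up to 250 bp apart were taken as 1.

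**Figure D2:**
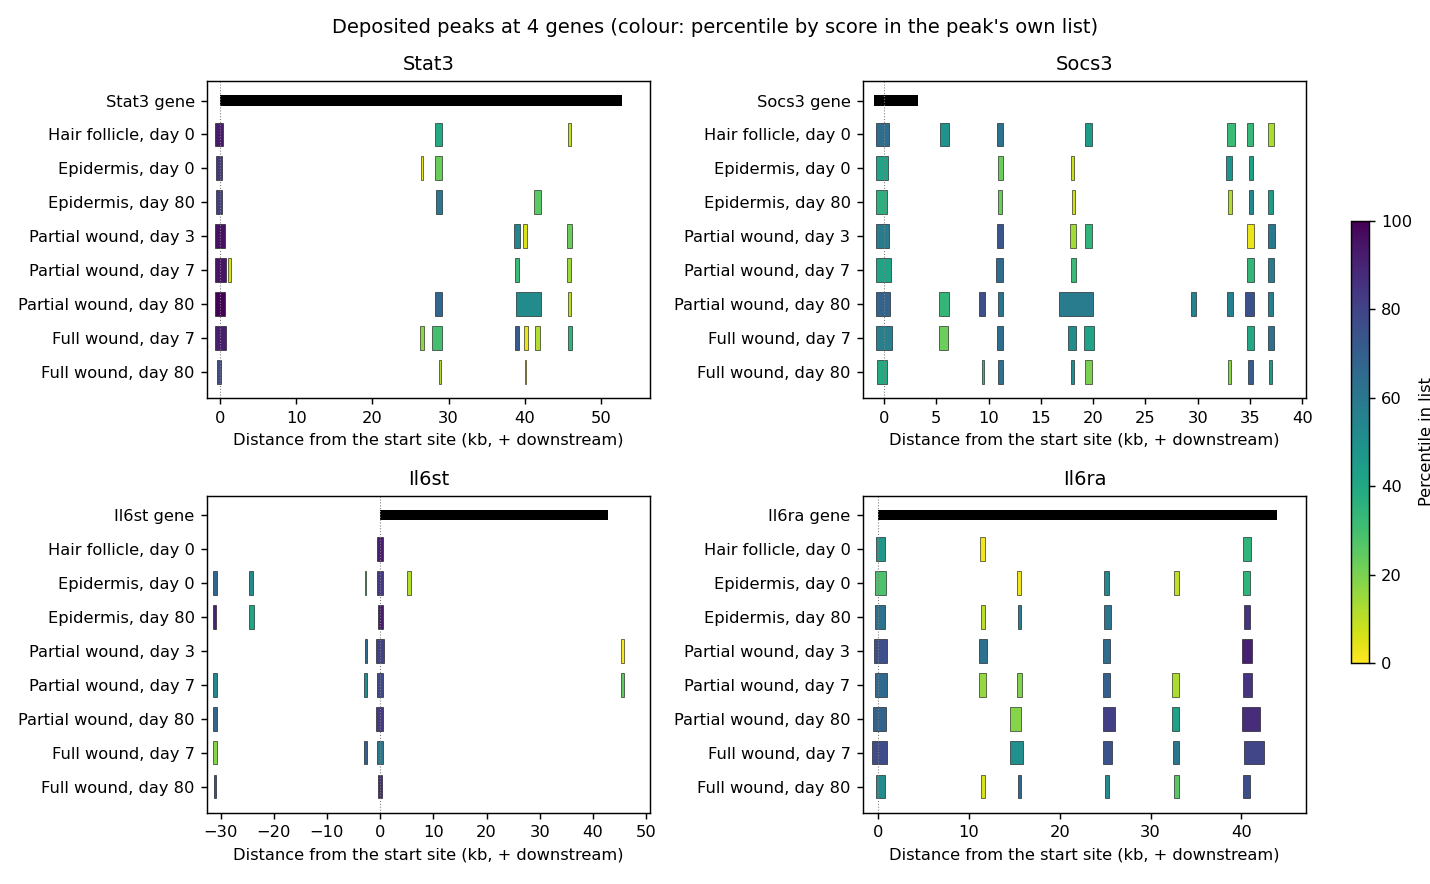
Deposited peaks at Stat3, Socs3, Il6st and Il6ra, drawn to scale by distance from the start site in kb (x axis, positive downstream) in each list (rows), with the gene as a black bar and colour for the percentile of the peak in its own list. The peaks over the start sites are in every row, and a single wide day 80 partial-thickness peak spans the separate Stat3 peaks near 40.4 kb.

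Socs3, the feedback inhibitor (gene ID 12702, chromosome 11, 117966079 to 117970336, minus strand), is a short gene with 1 region over its start and 8 downstream, the farthest 36.7 kb from the start. Hair follicle cells had 7 of its 9 regions, unwounded epidermis 5 and 6, partial-thickness wounds 5, 5 and 9 (days 3, 7 and 80) and full-thickness wounds 6 and 7. The day 80 partial-thickness list was the only one with all 9. The region 29.3 kb downstream (117939553 to 117940038) was in that list alone, at percentile 55.4. The region 9.1 kb downstream (117959700 to 117960242) was in both day 80 wound lists and no other, at 76.4 (partial) and 33.1 (full), with summits 8 bp apart.

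The remaining Socs3 regions were also found in unwounded cells. The region 5.2 kb downstream (117963129 to 117964130) stood at 48.8 in hair follicle cells, at 33.8 on day 80 of the partial-thickness and at 22.6 on day 7 of the full-thickness wound, and was in no other list. The region 10.7 kb downstream was in all lists, at 62.5 in the hair follicle, 22.9 and 22.4 in the unwounded epidermal lists and 61.6 to 73.1 in the 5 wound lists. Its epidermal places were the lowest. The region 36.7 kb downstream (117931956 to 117932689) was missing from day 0 epidermis alone, at 12.6 in the hair follicle, 45.2 in day 80 epidermis and 46.3 to 63.2 in the wound lists. The wide region 16.7 kb downstream (117949321 to 117952675) held 2 summit positions, at 18.1 kb in all lists except that of the hair follicle, and at 19.4 kb in the hair follicle, day 3 partial-thickness and both full-thickness lists. The wide day 80 partial-thickness peak had its summit at 18.1 kb and covered the other position too.

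Socs1, the other inhibitor (gene ID 12703, chromosome 16, 10783808 to 10785536, minus strand), had its start region in all lists, at percentiles from 35.4 in day 0 epidermis to 89.2 in the day 7 full-thickness list. Its other region, 13.7 kb downstream (10770758 to 10771845), stood at 28.8 in day 80 epidermis, at 24.9 on day 7 of the partial-thickness and at 15.0 on day 80 of the full-thickness wound, and was in no other list. With 2 regions in all, Socs1 had the fewest. Exon, intron and UTR positions were not analysed here for any gene.

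**Figure D3:**
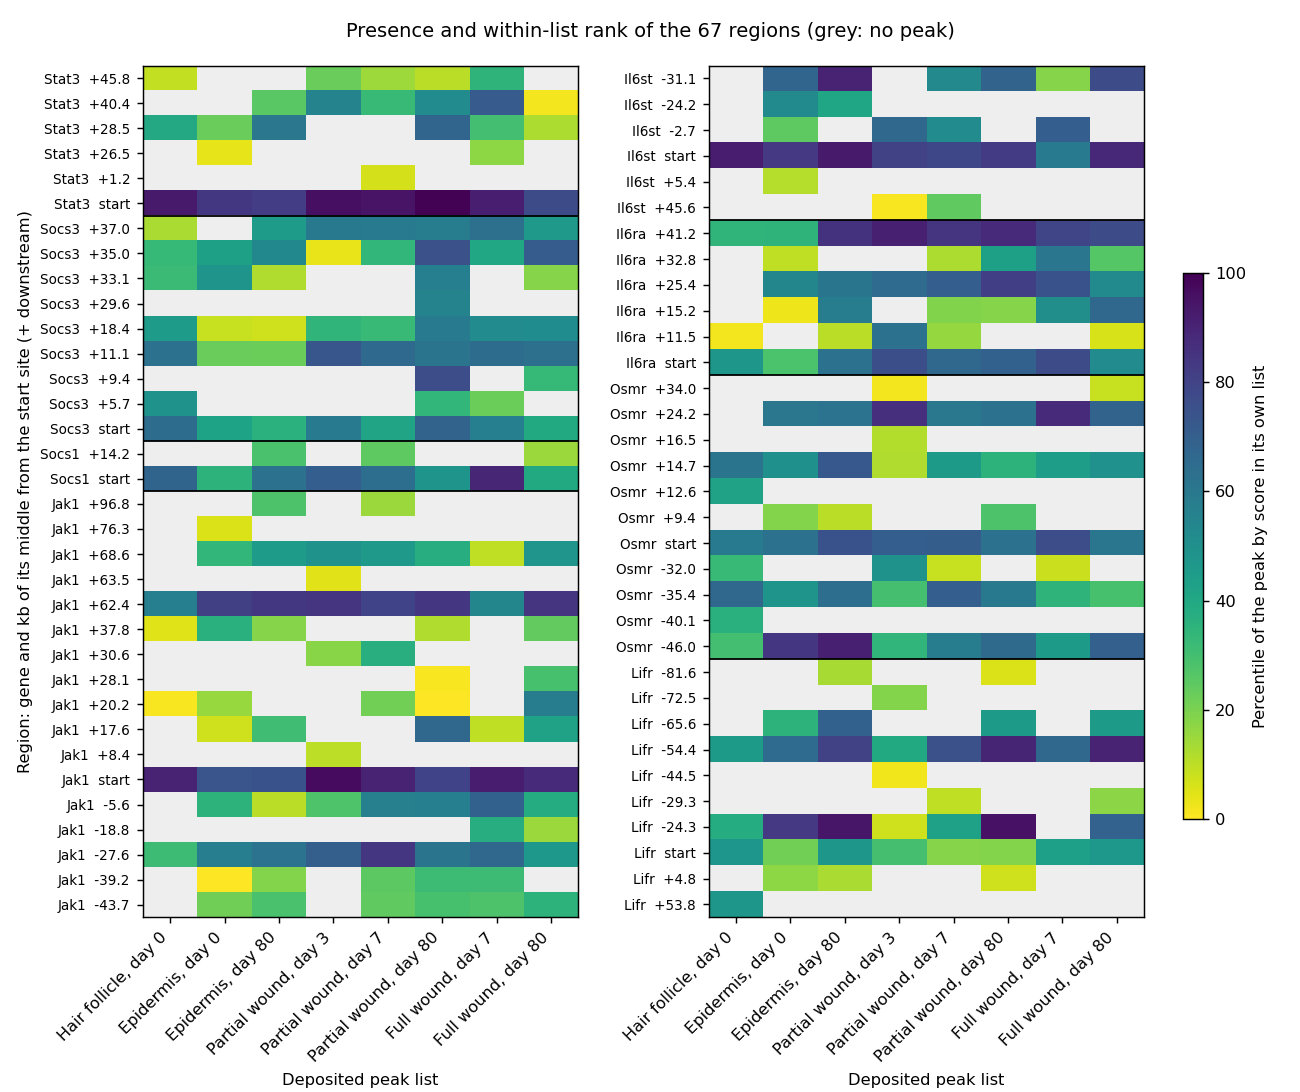
Each of the 67 regions (rows, named by gene and by kb of its middle from the nearest start site, which for the last 2 Lifr rows is the further one) in each list (columns), coloured by the percentile of its peak in that list and grey where the list has no peak. Rows of start regions are filled in all columns, and most rows with 1 coloured cell are pale, that is, low in their list.

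Hair follicle and epidermis were first compared. At these genes 18 of 67 regions (26.9%, interval 16.8 to 39.1) were in day 0 epidermis and not in the hair follicle, against 18.2% of all regions near a gene. In the other direction 8 (11.9%, 5.30 to 22.2) were hair follicle regions absent from day 0 epidermis, against 15.8%. Both intervals held the share of all regions, so the members' lean to the epidermal side was not separable from counting error. With day 80 epidermis in place of day 0, the counts were 17 (19.3% of all regions) and 7 (14.6%). The epidermal side held 6 Jak1 regions, 4 of Il6st, 3 of Il6ra, 2 each of Osmr and Lifr and 1 of Stat3. The hair follicle side held 3 of Osmr, 2 of Socs3 and 1 each of Stat3, Il6ra and Lifr. No Socs3 region was on the epidermal side, and no Jak1, Il6st or Socs1 region on that of the hair follicle. Of the 18, 4 (5.97% of the 67, 1.65 to 14.6), at Jak1, Il6ra and Osmr, were absent from the hair follicle list alone, a pattern picked after the values were seen, against 4.74% of all.

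The next question was how these regions fared when cells labelled as hair follicle progeny healed a partial-thickness wound. Of the 8 hair follicle regions, 4 were found on day 3 (38.4% of all such regions), 4 on day 7 (37.1%) and 3 on day 80 (22.7%), and 2 in day 80 epidermis (19.4%). The Stat3 region 45.5 kb downstream and the Socs3 region 36.7 kb downstream were in all 3 partial-thickness lists. Of the 18 epidermal regions, 5 were found on day 3 (27.8%, 9.70 to 53.5, against 46.0% of all such regions), 10 on day 7 (55.6%, against 53.0%), 13 on day 80 (72.2%, against 72.4%) and 13 in day 80 epidermis (72.2%, against 71.6%). The number of epidermal regions was lowest at day 3 and at day 80 equal to that of unwounded epidermis, as a count and not as the same regions. With day 80 epidermis in place of day 0, 5 of 17 were found on day 3 (41.1% of all such regions), 11 on day 7 (47.4%) and 14 on day 80 (71.0%), and 13 in day 0 epidermis (67.5%). On the hair follicle side the counts were then 2, 3 and 3 of 7, against 36.9%, 35.2% and 17.9% of all such regions. Day 0 epidermis held 1 of the 7, against 12.7%. The order of days 3 and 80 on the epidermal side was the same with either list. The 5 epidermal regions found on day 3, with day 0 as reference, were at Jak1 (2), Il6st, Il6ra and Osmr.

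Regions that appeared in a wound list of day 3 or 7 and were in neither day 0 list, called wound-gained, numbered 14 of 67 (20.9%, 11.9 to 32.6), against 26.8% of all regions. Jak1 had 5, Lifr 3, Stat3 and Osmr 2 each, and Socs1 and Il6st 1 each, with 0 at Socs3 and Il6ra. Of the 14, 6 were in a single list, at percentiles from 2.20 to 18.4. With day 80 epidermis in place of day 0 the count was again 14, although 3 regions changed places. The wide Stat3 region, the Socs1 region and a Jak1 region left it, and the Stat3 region 26.3 kb downstream, the Il6st region 2.4 kb upstream and an Il6ra region 32.4 kb downstream entered. With lists cut to equal length it was 7 of 58 (12.1%, against 20.3% of all). The 0 at Il6ra did not hold under some settings. It was 1 with day 80 epidermis in place of day 0 or with lists of equal length, and 3 with cover of 50% of a region. In the upper 50% of each list by score Il6ra had 5 and Socs3 2, and at a common −log10 p cut 6 and 4.

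The early wound lists held unequal numbers of these 14 regions. The day 3 partial-thickness list held 9 of 14 (64.3%, 35.1 to 87.2, against 60.7% of all wound-gained regions), the day 7 list 7 (50%, 23.0 to 77.0, against 46.2%) and the day 7 full-thickness list 2 (14.3%, 1.78 to 42.8, against 72.5%). The 2 full-thickness regions were the wide Stat3 region and a Jak1 region 18.3 kb upstream. The interval of the full-thickness share did not hold that of all regions, which was noticed after the values were seen. The value moved with the settings. With day 80 epidermis in place of day 0 it was 4 of 14 (28.6%, against 71.9% of all such regions). The day 7 partial-thickness list then held 6. Regions made from summits gave 5 of 18 (27.8%, against 69.9%). Cover of 50% of a region gave 6 of 19 (31.6%, against 73.7%), and a window of 10 kb 1 of 11 (9.09%, against 73.2%). With lists of equal length it was 4 of 7 (57.1%, against 69.3% of all such regions), above the 1 of 7 of the day 3 partial-thickness list, and the cut at a common −log10 p gave 21 of 37 (56.8%, against 62.7%). In the upper 50% of each list by score it was 9 of 10, above the 71.4% of all such regions. The full-thickness share was below that of all such regions in 8 of 9 alternatives. The order of the 3 early wound lists thus changed with the settings.

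Of 87 shares of the 8 genes computed beside that of all regions, 4 had an interval that did not hold the latter, all singled out after the values were seen. Apart from the full-thickness share, 17 of 67 regions (25.4%, 15.5 to 37.5) were in day 0 epidermis and not in the day 3 partial-thickness list, against 12.5% of all. In the day 7 full-thickness list and not in that of day 80 were 6 (8.96%, 3.36 to 18.5), against 19.4%. Outside promoters, day 0 epidermis held 33 of 59 regions (55.9%, 42.4 to 68.8), against 42.2%. Day 80 epidermis also held 33 of 59, against 44.4% of all, which the interval holds. The share absent from the day 3 list was not recomputed with day 80 epidermis.

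At day 80 a wound list held 5 of these 14 regions. The partial-thickness list held 1 of 14 (7.14%, 0.181 to 33.9, against 18.3% of all wound-gained regions), the full-thickness list 5 (35.7%, 12.8 to 64.9, against 19.5%) and unwounded day 80 epidermis 3 (21.4%, 4.66 to 50.8, against 9.92%). The 5 were the wide Stat3 region, which was also the 1 of the partial-thickness list, and regions of Socs1, Jak1, Osmr and Lifr. The Stat3 and Socs1 regions were also among the 3 of unwounded epidermis. This leaves the Jak1 region 18.3 kb upstream, the Osmr region 33.5 kb downstream and the Lifr region 29.0 kb upstream of the first start, inside the gene. They stood at percentiles 15.0, 8.31 and 17.2 of the day 80 full-thickness list. At Stat3 the summits in these lists differed, as given above. With day 80 epidermis in place of day 0, 4 of 14 wound-gained regions were in a day 80 wound list, and the Stat3 region was not among them.

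Regions of the day 80 wounds that neither unwounded epidermal list held numbered 8 of 67 (11.9%, 5.30 to 22.2), against 12.4% of all. Socs3 had 3, Jak1 2, and Stat3, Osmr and Lifr 1 each. The hair follicle list held 2 of them, the Stat3 region 45.5 kb downstream and the Socs3 region 5.2 kb downstream. Without the full-thickness lists the count was 5 (7.46%, against 7.71% of all). The Socs3 regions 29.3 and 9.1 kb downstream and the Jak1 region 27.8 kb downstream were in no unwounded list and in no early wound list either.

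Day 0 regions missing from the early wounds were the last comparison. Of the 67 regions, 11 (16.4%, 8.49 to 27.5) were in a day 0 list and in no early wound list, against 16.2% of all, and 10 with day 80 epidermis in place of day 0. Osmr and Lifr had 3 each, Jak1 and Il6st 2 each and Socs3 1. Both Il6st regions were in day 0 epidermis and not in the hair follicle list. A further class, chosen after the values were seen, held 5 regions of these genes (7.46%, 2.47 to 16.6, against 4.31% of all). These were in both unwounded epidermal lists, in no early wound list and in at least 1 day 80 wound list. They were a Socs3 region 32.7 kb downstream, a Jak1 region 37.2 kb downstream, an Osmr region 9.1 kb downstream and Lifr regions 65.2 kb upstream and 15.3 kb downstream of the first Lifr start. All 5 were in the day 80 partial-thickness list, and the Socs3, Jak1 and first Lifr regions also in the full-thickness list. The Osmr region and both Lifr regions were not in the hair follicle list. For cells labelled as hair follicle progeny these are thus not a loss and return. The class held 2 regions with cover of 50% of a region (2.99%, against 3% of all). It held 1 in the upper 50% of each list by score and 0 at the common −log10 p cut.

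**Figure D4:**
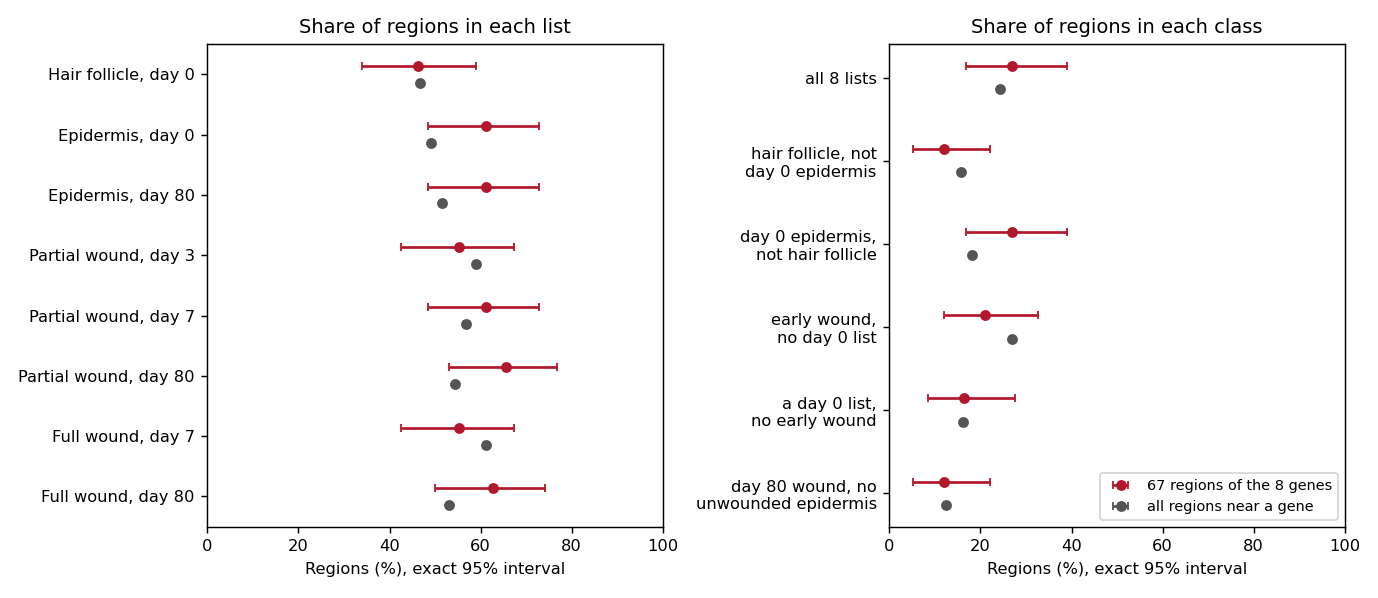
Share of regions in percent (x axis) in each list (left) and each class (right), for the 67 regions of the 8 genes (red, with exact 95% intervals for counting error) and for all 52791 regions near a gene (grey). Every red interval drawn holds the grey point, from 46.3% against 46.8% in the hair follicle list to 65.7% against 54.5% in the day 80 partial-thickness list.

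Over the 8 genes together, 18 of 67 regions (26.9%, 16.8 to 39.1) were in all 8 lists, against 24.4% of all, and 12 (17.9%) in 1 list, against 24.9%. Outside promoters 10 of 59 (16.9%) were in all 8 lists, against 15.0%. The 18 had a median best percentile of 80.7, the 12 one of 11.4. Among all regions near a gene these medians were 89.0 and 16.8. By number of regions the genes were rich: 7 of 8 had at least 6 regions, as did 17.9% of the 14757 genes with any. Stat3, Il6st and Il6ra had exactly 6, and gene length was not taken into account.

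Some other genes had nearly the same counts over the 8 lists. Likeness was the sum of absolute differences in the number of regions, among genes with as many regions as the member. Of 621 genes with 6 regions, Dbi and Mcl1 differed from Stat3 by 1 and Vldlr by 2. Mcl1 is also in the list of STAT3 targets below. For Il6ra the nearest were Cd69, Defb1 and Lhpp (3 each), for Il6st Ifih1, Rtn4 and Usp7 (4 each), for Osmr Ktn1 and Myo10 (4 each) and Ptk2b (5), and for Lifr Dap, Sntb1 and Yap1 (6 each). For Socs3 and Jak1 the differences were 7 or more and 10 or more, among 213 and 41 genes. Such a sum can grow with the number of regions, so it does not compare members with different numbers.

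The rest of the pathway is given by counts of wound-gained regions, to be read against the 26.8% of all regions. The ligand genes had 17 regions, 6 of them wound-gained (35.3%). Lif, which encodes a ligand of LIFR, had 3 of its 7. Hair follicle cells had 3 Lif regions and unwounded epidermis 1 at either day. The early partial-thickness lists had 4 and 3, and the day 7 full-thickness list 4. Il6 had 2 regions, one in the hair follicle list and the other in day 0 epidermis, and 0 wound-gained, while Osm, the ligand of OSMR, had no region in any list. Other receptor genes had 3 of 8, with 2 at Cntfr and 1 at Il31ra, which lies 15071 bp from Il6st.

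Other kinase and STAT genes had 9 of 27 (33.3%). Stat5b, a neighbour of Stat3 on chromosome 11, had 3 of 4, with 1 region in hair follicle cells, 0 in both unwounded epidermal lists, 3, 1 and 0 after partial-thickness and 2 and 1 after full-thickness wounding. Jak2 had 1 of 6. Other inhibitor genes had 13 of 48 (27.1%), led by Socs6 and Socs7 with 3 each and Socs5 and Socs2 with 2 each. Genes known as STAT3 targets had 24 of 87 (27.6%). Pim1, a survival kinase gene, had 4 of 4, with 0 regions in both day 0 lists, 2 in day 80 epidermis, 3, 2 and 3 after partial-thickness and 3 and 1 after full-thickness wounding. Fos, Bcl6 and Cebpb had 3 each, of 13, 10 and 8.

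The labelled cell types were checked by regions at marker genes. At the 7 hair follicle stem cell genes hair follicle cells had 43 regions and unwounded epidermis 23 and 19, with 38, 38 and 19 after partial-thickness and 17 and 24 after full-thickness wounding. At the epidermal stem cell genes hair follicle cells had 4 and the other lists 8 to 10, with 8 in day 0 epidermis. Gata3 had 3 in the hair follicle and 6 and 7 in unwounded epidermis, and Klf5 had 1 against 2 and 2. Ovol1 went against its label, with 0 in hair follicle cells and both unwounded epidermal lists and 1 to 3 in the wound lists. Ly6a had 0 in every list. Basal keratinocyte genes had 25 regions in hair follicle cells, 11 in day 0 epidermis, 25 in day 80 epidermis and 21 to 33 in the wound lists. Day 0 epidermis was thus the lowest, with 0 regions at Krt5 and 2 at Trp63, against 2 and 10 in day 80 epidermis, and it is the list whose peak names bear the day 7 tag. Of 8 immune genes 4 had any region and Cd3g, Lyz2, Cd74 and Csf1r had 0 in all lists. The summed immune regions were 1 in the hair follicle, 2 and 4 in unwounded epidermis and 3 to 5 in the wound lists, with Ptprc at 0 in the hair follicle and day 80 full-thickness lists and at 1 to 3 in the others. Endothelial genes had 11 and 14 in the early partial-thickness lists, against 5 to 9 in the others. Fibroblast genes had 2 to 8 regions, with 8 in both hair follicle cells and day 80 epidermis, melanocyte genes 8 to 15, with 15 in hair follicle cells, and suprabasal keratinocyte genes 2 to 8. Whether such cells had a part in the regions described was not tested.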

How the data were processed

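Accessible regions came from 8 peak lists deposited by the authors, 1 for each of the 8 groups of the 24 samples. Bowtie, Picard, MACS2 2.1.1.20160309, bedtools 2.29.2 and the mm10 build are named per the submitters' processing notes, with no role or order. The sources used here do not say whether samples were pooled for peak calling. Each deposited peak carries the authors' score, a fold enrichment (a ratio) and −log10 p and q values, used only to rank or cut peaks within a list. The lists held 29365 to 37214 peaks, with median widths of 460 to 987 bp and lowest −log10 p from 7.86 to 40.2, so a weak region can enter one list and miss another. Depth is unknown.

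Overlapping or touching peaks were merged, and a list held a region from 1 bp of overlap. RefSeq (GRCm38.p6) gave genes, start sites and promoters, and all 8 members matched. Shares have exact 95% intervals (Python 3.11.15, scipy 1.17.1). Code was tested on simulated data. The members, the gene lists and most classes were chosen with earlier results of these data known. All 8 members are named, and per list of other pathway genes up to 4 with the most wound-gained regions, while Il6, Osm, and immune markers were named after their values were seen. There were 7 alternatives planned and 3 added after seeing the data (day 80 epidermis in place of day 0, full-thickness lists left out, regions made from summits).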

Additional observations from a re-analysis of the deposited data

How the results depend on the processing

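No paired analysis was possible because each group has 1 list, and leaving out a replicate could not be done for the same reason. Of the recomputed counts that answer a comparison, 48 stayed within 1.5 times the reported count and 17 did not. With the upper 50% of each list by score, the 67 member regions became 36. Hair follicle regions absent from day 0 epidermis went from 8 to 5 (13.9%, against 16.5% of all). Epidermal regions absent from the hair follicle went from 18 to 8 (22.2%, against 18.9%). Day 0 regions absent from every early wound list went from 11 to 3 (8.33%, against 17.3%). Every list was also cut at a −log10 p of 40.2, which removes most of the weaker lists. Epidermal regions then fell to 3 of 55 (5.45%, against 7.26% of all). Day 0 regions absent from every early wound list fell to 0, against 4.57%. Wound-gained regions rose from 14 to 37 (67.3%, against 58.6%) and those present at day 80 from 5 to 13 (23.6%, against 11.4%). Day 80 wound regions absent from unwounded epidermis rose from 8 to 22. Lists of equal length, 29365 peaks each, left 7 wound-gained regions. A window of 10 kb gave 5 hair follicle regions and 3 wound-gained regions at day 80. It left 7 day 0 regions absent from every early wound list. A window of 100 kb gave 8 wound-gained regions at day 80. Regions made from summits gave 13 hair follicle regions. Without the full-thickness lists, 1 wound-gained region was present at day 80 and 5 day 80 wound regions were absent from unwounded epidermis. The members' share of epidermal regions stayed above that of all regions in 8 of 9 alternatives, the −log10 p cut being the exception. Hair follicle regions kept their side in 8 of 9 and wound-gained regions in 9 of 10. Wound-gained regions present at day 80 kept theirs in 5 of 10. Day 0 regions absent from every early wound list kept theirs in 4 of 10. Day 80 wound regions absent from unwounded epidermis kept theirs in 4 of 9. They were 30.6% against 13.7% of all in the upper 50% by score, and 40% against 21.1% at the −log10 p cut. Apart from cuts that shorten lists by construction, the cause of each move was not tested. Regions in all 8 lists fell from 18 to 6 under the rule of 50% cover.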
